A study of Polistes metricus with 16 samples.

Results

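Worker-reared larvae of the paper wasp Polistes metricus were compared with larvae fed ad libitum in a laboratory, transcript by transcript. The comparison takes all 4 larvae that the labels call worker-reared and all 4 that they call ad libitum, 8 of the 16 larvae in the series. The 2 groups would share a queen-like state if rich feeding sets the path to queen. The worker-reared larvae came from field nests in Iowa in the late summer of 2010 and were destined to become queens. The ad libitum larvae came from nests gathered in North Carolina in the late spring of 2009 and kept in a laboratory, where prey was offered every 1 day.

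The other 8 larvae form a second pair of groups, also from the field and the laboratory. Foundress-reared larvae were taken at the Iowa site in the late spring of 2010 and were destined to become workers, and restricted larvae came from the North Carolina nests with prey offered every 3 days. Each group held 4 larvae, all larvae were females in instar 5, the last larval stage, and 1 head gave 1 sequencing library. The labels give every larva a code but do not say which larvae were nest mates, so every p-value rests on the spread among single larvae, which may include nest mates. Field or laboratory rearing, population, year and season differ together between the worker-reared and ad libitum groups and cannot be told apart. In the second pair both field sampling and nest collection fell in late spring, so the pairs differ from each other in season as well as in caste path and feeding.

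In paper wasps, a foundress starts the nest in spring and her first daughters become workers, which later rear the reproductive brood. Workers and queens do not differ in gross body form, and the path a female takes is influenced during larval life, where the amount of food received is thought to matter. Nourishment in the last instar is laid down as stores, largely storage proteins made by the fat body, that the pupa and the young adult draw on. A whole larval head holds brain, muscle, epidermis, glands and some fat body.

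Worker-reared libraries held 30084017 to 37626473 counts and ad libitum libraries 29048017 to 33471057. Transcripts with any count numbered 58758 ± 1326 in worker-reared and 57942 ± 1207 in ad libitum larvae (SD, n = 4). The 10 most abundant transcripts of a library took 9.30% ± 1.22 of counts in worker-reared and 15.2% ± 8.89 in ad libitum larvae, where ad libitum replicate 3 had 28.1%. Of 4 such library measures, none passed an exact permutation test between the groups (two-sided, smallest adjusted p 0.419, smallest raw p 0.114, where the smallest possible p is 0.0286). The deposited table holds identifiers that are not paired with gene names, so no marker of a tissue or cell type could be checked, and every transcript is given by its identifier with no function.

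Few transcripts were called different between the 2 groups. Of 36337 transcripts with enough counts to test, 31 were higher and 44 lower in worker-reared than in ad libitum larvae (edgeR quasi-likelihood test, Benjamini-Hochberg adjusted p under 0.05). This is 0.206% of the transcripts tested, 0.0853% higher and 0.121% lower. Most of the called differences were large, and with 4 larvae a group a large difference is more readily called than a small one. The median fitted difference among the 75 was 7.19-fold, or 6.61-fold with the 3 transcripts at 0 counts in a whole group set to their lower bound. The median was 4.63-fold among those that rose and 11.3-fold among those that fell (10.1-fold with the lower bounds). A difference of at least 4-fold was fitted for 17 that rose and 31 that fell, and 7 of the 75 differed by less than 2-fold. In RNA from a whole head, fewer cells of a type and less RNA per cell cannot be told apart.

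**Figure D1:**
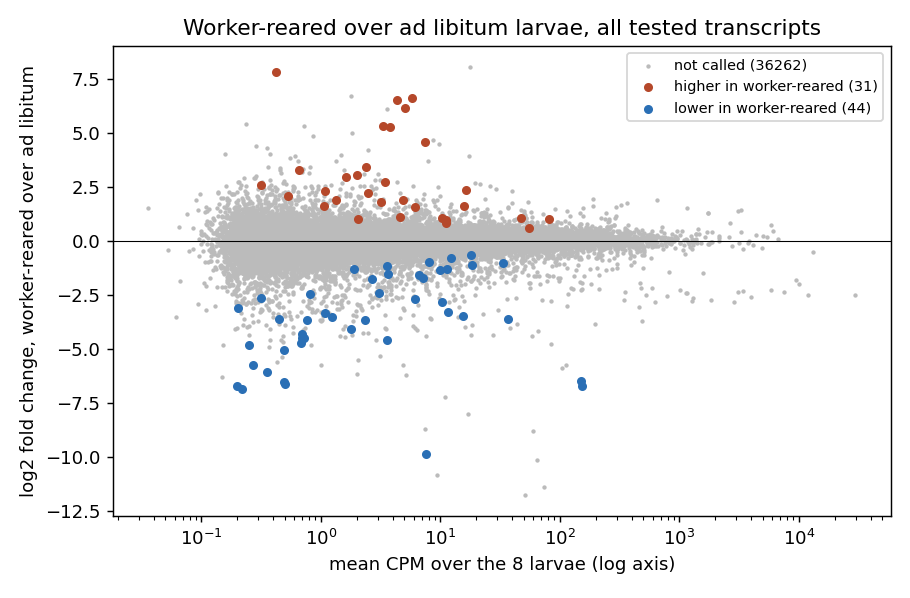
Each point is 1 of the 36337 tested transcripts, with its mean level over the 8 larvae in CPM (log axis) against its log2 fold change of worker-reared over ad libitum larvae. The 31 called higher and 44 called lower transcripts are coloured and lie between 0.197 and 154 CPM, below the most abundant transcripts.

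The called transcripts were spread over low and moderate levels. Their mean level over the 8 larvae ran from 0.197 to 154 CPM (depth-scaled counts from the cpm function of edgeR, with TMM-adjusted library totals), with a median of 3.33 CPM against 2.39 CPM for all transcripts tested. A mean under 1 CPM was found for 28% of them and for 34.2% of all tested. A mean of at least 10 CPM was found for 25.3% of them and for 29.0% of all tested. The most abundant called transcript ranked 893 in the table. Among the 78 transcripts with a mean of at least 1000 CPM, the smallest edgeR adjusted p was 0.358.

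The fall with the smallest p was in PmetTSAr1.1-006826. Its levels in worker-reared replicates 1 to 4 were 2.78, 1.73, 1.71 and 2.34 CPM. Those in the ad libitum replicates were 24.6, 17.5, 25.4 and 17.0 CPM. The lowest ad libitum larva stood well above the highest worker-reared larva, so the groups did not overlap. The fitted log2 fold change was -3.30 (SE 0.275, edgeR adjusted p = 0.000159), a 9.87-fold lower level, and the call held when any of the 16 larvae was left out. The transcript with the next number fell 7.19-fold (edgeR adjusted p = 0.000407). Once each group's mean was removed, the log2 levels of these neighbours moved together over the 16 libraries (Pearson's r = 0.907), and the counting tool can divide or repeat fragments between similar transcripts, so they are not 2 independent results.

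The next smallest p among falls of moderately abundant transcripts belonged to PmetTSAr1.1-016974. Worker-reared larvae had 6.36, 6.84, 7.09 and 5.97 CPM and ad libitum larvae had 16.0, 16.8, 15.7 and 16.3 CPM. The spread within each group was small beside the gap between them. The log2 fold change was -1.30 (SE 0.128, edgeR adjusted p = 0.000407), and the call held when any larva was left out.

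PmetTSAr1.1-008795 had the smallest p among moderately abundant transcripts that rose. Worker-reared larvae had 22.3, 26.9, 21.9 and 39.2 CPM and ad libitum larvae had 6.50, 5.13, 3.54 and 6.62 CPM. Worker-reared replicate 4 was highest, but each of the other worker-reared larvae also lay above every ad libitum larva. The log2 fold change was 2.34 (SE 0.284, edgeR adjusted p = 0.00174), a 5.05-fold higher level, and the call held when any larva was left out.

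PmetTSAr1.1-016975 followed, with 15.2, 12.4, 16.0 and 15.8 CPM in worker-reared and 7.26, 7.60, 8.68 and 6.91 CPM in ad libitum larvae. No value of one group entered the range of the other. The log2 fold change was 0.96 (SE 0.147, edgeR adjusted p = 0.0100). The call was lost without ad libitum replicate 1 or ad libitum replicate 2, with an edgeR adjusted p of up to 0.0672.

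**Figure D2:**
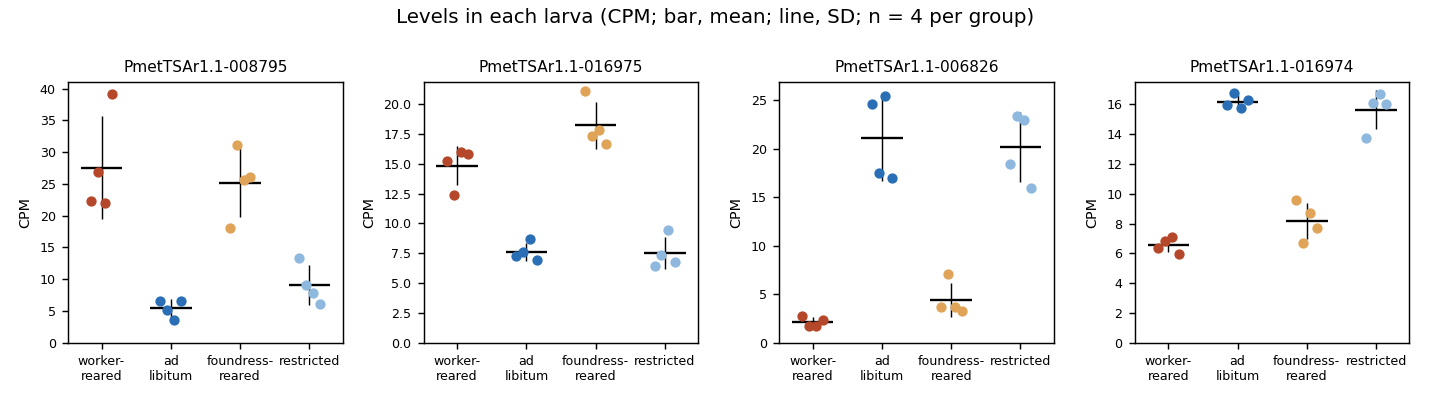
Levels in CPM of the 4 transcripts described above, with 1 point per larva in each of the 4 groups, a bar at the mean and a line for the SD (n = 4). In each panel the 4 worker-reared larvae stand apart from the 4 ad libitum larvae, and the foundress-reared and restricted larvae are separated in the same direction.

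PmetTSAr1.1-016974 and PmetTSAr1.1-016975 are neighbours in number that went opposite ways, and the pair was singled out after its values were seen. Their summed level was 21.4 ± 1.59 CPM in worker-reared and 23.8 ± 0.683 CPM in ad libitum larvae (SD, n = 4). PmetTSAr1.1-016974 made up 27.4% to 35.5% of that sum in worker-reared larvae and 64.4% to 70.2% in ad libitum larvae. In foundress-reared larvae the share was 27.9% to 32.8%, and in restricted larvae 63.9% to 70.2%. The share thus lay at 2 separate levels, 1 in all 8 field larvae and 1 in all 8 laboratory larvae, while the sum stayed between 19.2 and 30.6 CPM in every larva. Whether these identifiers belong to the same gene was not tested, since no sequence was used here. Identifiers follow abundance roughly (Spearman's rho of number and mean count -0.87 across transcripts), and the 75 called identifiers form 71 runs, of which 4 are pairs of consecutive numbers.

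Large fitted falls were found at high and at low levels. A pair of consecutive numbers held the largest falls among called transcripts that averaged at least 1 CPM with groups apart, 105-fold and 90.2-fold (edgeR adjusted p 0.0172 and 0.0277). The first of them had 382, 152, 633 and 56.1 CPM in ad libitum larvae and 1.06, 2.56, 1.05 and 7.02 CPM in worker-reared larvae. The ad libitum larvae differed widely among themselves, with replicate 3 highest and replicate 4 lowest, and the size of the fall carries a wide error (log2 fold change -6.71, SE 1.06). These calls were lost in 3 and 6 of the 16 omissions of a larva, in the order given, with an edgeR adjusted p of up to 0.0829 and 0.112. Another transcript fell 24.5-fold (edgeR adjusted p = 0.00160), with 5.68, 8.20, 5.52 and 7.90 CPM in the ad libitum larvae, which lay close together. The worker-reared larvae had 0.573, 0.207, 0.272 and 0.0550 CPM, low levels that were widely spread for their size. The largest fitted fall of all, 929-fold, was in the only called transcript whose groups overlapped. It had 641, 416, 0 and 1101 counts in the ad libitum larvae and 0, 0, 1 and 1 in the worker-reared larvae, so ad libitum replicate 3 had none, and the call held in 11 of the 16 omissions.

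The largest fitted rises were uneven among worker-reared larvae. Among called transcripts that averaged at least 1 CPM with groups apart, the 3 largest rises were 97.9-fold, 90.1-fold and 71.1-fold (edgeR adjusted p 0.0499, 0.0306 and 0.0442). The transcript with the 97.9-fold rise had 9.05, 6.53, 29.0 and 0.991 CPM in worker-reared replicates 1 to 4. It was also present in the foundress-reared larvae, at 0.490, 10.1, 20.9 and 5.50 CPM, and reached at most 0.209 CPM in an ad libitum larva. The transcript with the 90.1-fold rise had 11.4, 3.68, 18.9 and 0.468 CPM in worker-reared replicates 1 to 4 and at most 0.198 CPM in an ad libitum larva. The transcript with the 71.1-fold rise had 14.0, 4.19, 21.1 and 0.715 CPM, and a further called transcript, picked after its values were seen, had 8.05, 3.29, 14.0 and 0.660 CPM. All of these transcripts kept 1 order among the worker-reared larvae, with replicate 3 highest and replicate 4 lowest. Unlike the first, the last 3 stayed at or below 0.413 CPM in all 12 larvae of the other groups. The calls of the 3 largest rises were lost in 14, 8 and 15 of the 16 omissions of a larva, in the order given.

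Presence and absence were seldom the difference. With at least 10 counts in each of 4 larvae taken as present, 1 transcript was present in worker-reared larvae and at 0 in all ad libitum larvae, and 0 showed the reverse. That transcript had 37, 17, 42 and 36 counts in worker-reared larvae, at least 10.2-fold higher than a floor of 3 counts per library in the ad libitum larvae. It also had 9, 16, 58 and 14 counts in the foundress-reared larvae, against 0, 0, 2 and 0 in the restricted larvae. Called transcripts at 0 counts in all 4 worker-reared larvae numbered 2, at least 4.86-fold and 5.39-fold lower against the same floor. The 2 differed in the field: the first had at most 1 count in any foundress-reared larva, and the second had 0, 9, 9 and 9 counts there.

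The second pair of groups gave a separate view of the same 75 transcripts. Foundress-reared over restricted larvae is also a field over laboratory comparison, it shares no larva with worker-reared over ad libitum, and it sets larvae on the worker path against larvae on restricted feeding. It gave far more calls, 1968 of 36337 transcripts or 5.42%, with 842 higher and 1126 lower in foundress-reared larvae (edgeR adjusted p under 0.05). The libraries of this pair also differed in transcripts with any count, 53148 to 57466 in foundress-reared and 57586 to 62026 in restricted larvae. The 10 most abundant transcripts took 32.1% of counts in foundress-reared replicate 4. Whether these features or any 1 larva moved the count of 1968 was not tested. Of the 75 transcripts, 65 (86.7%) had the same sign in this second pair, 26 of those that rose and 39 of those that fell, against 47.7% of all tested transcripts. Both comparisons called 48 of them in the same direction, 14 higher and 34 lower. Both use the same estimate of a transcript's spread, so their calls are not fully independent. Those 48 are 64% of the worker-reared over ad libitum calls and 2.44% of the foundress-reared over restricted calls. The median log2 fold change of the 75, signed by their direction in worker-reared over ad libitum, was 1.47 in the other pair (2.78-fold) against -0.03 over all tested transcripts. It was 2.85 in their own pair, where they were chosen, so the larger size there is not evidence of a stronger difference.

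The 4 transcripts given above by identifier were called in both comparisons. PmetTSAr1.1-006826 stood at 3.73, 7.06, 3.66 and 3.27 CPM in foundress-reared larvae, against 18.4, 23.4, 23.0 and 16.0 CPM under restricted feeding (log2 fold change -2.18, edgeR adjusted p = 0.00151). PmetTSAr1.1-016974 stood at 9.56, 6.70, 8.70 and 7.73 against 13.8, 16.1, 16.7 and 16.0 CPM (log2 fold change -0.94, edgeR adjusted p = 0.00340). In both transcripts each field larva of either group lay below each laboratory larva. PmetTSAr1.1-008795 stood at 18, 31.2, 25.6 and 26.1 against 13.4, 9.13, 7.76 and 6.07 CPM (log2 fold change 1.47, edgeR adjusted p = 0.0150). PmetTSAr1.1-016975 stood at 21.1, 17.3, 17.8 and 16.7 against 6.47, 7.36, 9.43 and 6.80 CPM (log2 fold change 1.28, edgeR adjusted p = 0.00146). In these both field groups lay above both laboratory groups without overlap.

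The same held for most of the called transcripts. All 8 field larvae lay on one side of all 8 laboratory larvae in 48 of the 75, 16 higher and 32 lower in the field, against 0.482% of all tested transcripts. The worker-reared and ad libitum larvae did not overlap in 74 of the 75 and in 8.39% of all tested. The 75 were called on these same 8 larvae, so that count restates the choice, and the counts that need worker-reared and ad libitum larvae apart follow from it in part. The foundress-reared and restricted larvae did not overlap, in the same direction, in 50 of the 75, and were apart in either direction in 10% of all tested. Worker-reared larvae lay outside the range of the other 12 larvae in 20 of the 75, above it in 11 and below it in 9, against 0.581% of all tested transcripts. Ad libitum larvae lay outside the range of the other 12 in 4 of the 75, against 0.179% of all tested.

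**Figure D3:**
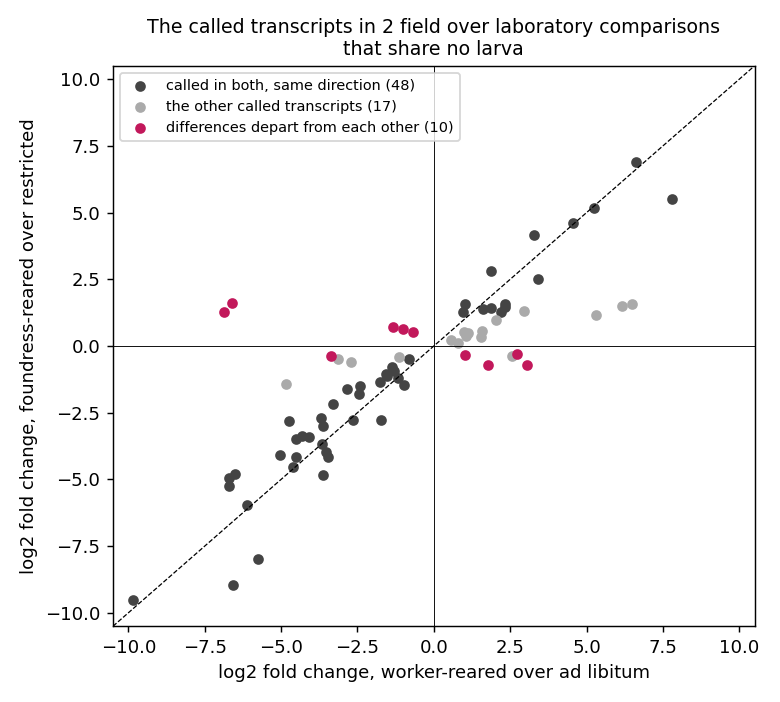
Each of the 75 called transcripts is placed by its log2 fold change in worker-reared over ad libitum larvae (horizontal axis) and in foundress-reared over restricted larvae (vertical axis), with a dashed line of equality. The 48 called in both in the same direction lie in the lower left and upper right, and the 10 whose differences departed from each other lie near the horizontal axis or across it.

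The remaining 27 calls split into those whose differences were shown to depart between the pairs and those for which this was not shown. The difference between the 2 field over laboratory differences was tested directly in the same edgeR model. It passed the threshold for 199 of 36337 transcripts, or 0.548%, 102 of them with a larger signed value in worker-reared over ad libitum. Among the 75 it passed for 10, 4 higher and 6 lower in worker-reared larvae, and the 10 were first chosen for their worker-reared over ad libitum difference. Only 1 of the 10 had the same sign in both pairs. Of the other 17 calls, 16 had the same sign and 5 had an unadjusted p under 0.05 in foundress-reared over restricted larvae, where 23.8% of all tested transcripts had one. Season, caste path and feeding all differ between the pairs and cannot be told apart in these departures.

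Among the 10, PmetTSAr1.1-027862 had the smallest p of those higher in worker-reared larvae. It stood at 9.31, 6.03, 3.74 and 4.98 CPM in worker-reared and at 1.42, 0.699, 0.759 and 0.756 CPM in ad libitum larvae. Foundress-reared larvae had 2.60, 1.46, 3.28 and 2.05 CPM and restricted larvae had 1.97, 1.81, 3.42 and 4.22 CPM. The first pair did not overlap, with ad libitum larvae lowest of the 4 groups, while the second pair overlapped. Its log2 fold change was 2.72 in the first pair (SE 0.383, edgeR adjusted p = 0.00646) and -0.29 in the second (edgeR adjusted p = 0.675), a departure of 3.01 (SE 0.520, edgeR adjusted p = 0.0402).

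PmetTSAr1.1-024060 stood at 4.64, 4.66, 5.10 and 5.20 CPM in worker-reared and at 1.82, 0.967, 1.18 and 1.77 CPM in ad libitum larvae. The foundress-reared levels of 1.42, 3.07, 3.07 and 2.23 CPM and the restricted levels of 3.29, 6.02, 4.73 and 2.20 CPM overlapped. Worker-reared larvae were tightly grouped, and the restricted larvae reached both below and above them. The log2 fold change was 1.77 (SE 0.320, edgeR adjusted p = 0.0376) in the first pair and -0.72 (edgeR adjusted p = 0.176) in the second, a departure of 2.49 (SE 0.447, edgeR adjusted p = 0.0402).

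PmetTSAr1.1-004133 was called in both pairs in opposite directions. It stood at 26.8, 23.4, 19.4 and 18.4 CPM in worker-reared and at 45.2, 48.7, 38.6 and 45.8 CPM in ad libitum larvae. Foundress-reared larvae had 47.6, 54.1, 54.1 and 54.5 CPM and restricted larvae 28.9, 31.5, 43.4 and 33.0 CPM. Ad libitum and foundress-reared larvae thus stood high, and worker-reared larvae were the lowest of all 16. The log2 fold change was -1.02 (SE 0.149, edgeR adjusted p = 0.00785) in the first pair and 0.62 (edgeR adjusted p = 0.0311) in the second, a departure of -1.64 (SE 0.210, edgeR adjusted p = 0.0107).

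PmetTSAr1.1-020810 was also called in both pairs in opposite directions, at smaller sizes, but its worker-reared and restricted larvae overlapped. It stood at 12.7, 15.6, 14.7 and 12.1 CPM in worker-reared and at 20.2, 21.4, 24.5 and 22.1 CPM in ad libitum larvae. Foundress-reared larvae had 26.9, 22.8, 22.6 and 21.3 CPM and restricted larvae 15.4, 15.2, 19.1 and 16.0 CPM. Neither pair overlapped, and the pairs were separated in opposite directions. The log2 fold change was -0.68 (SE 0.125, edgeR adjusted p = 0.0402) in the first pair and 0.51 (edgeR adjusted p = 0.0338) in the second, a departure of -1.19 (SE 0.177, edgeR adjusted p = 0.0298). The count of 199 departures fell to 0 without ad libitum replicate 2, and it ran from 0 to 3117 over all omissions of a larva. The departures of PmetTSAr1.1-027862 and PmetTSAr1.1-024060 were each lost in 13 of 16 omissions, that of PmetTSAr1.1-020810 in 8 and that of PmetTSAr1.1-004133 in 2. The worker-reared over ad libitum calls themselves held in every omission for PmetTSAr1.1-027862 and PmetTSAr1.1-004133. They were lost in 12 omissions for PmetTSAr1.1-024060 and in 13 for PmetTSAr1.1-020810, with an edgeR adjusted p of up to 0.156 and 0.149.

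**Figure D4:**
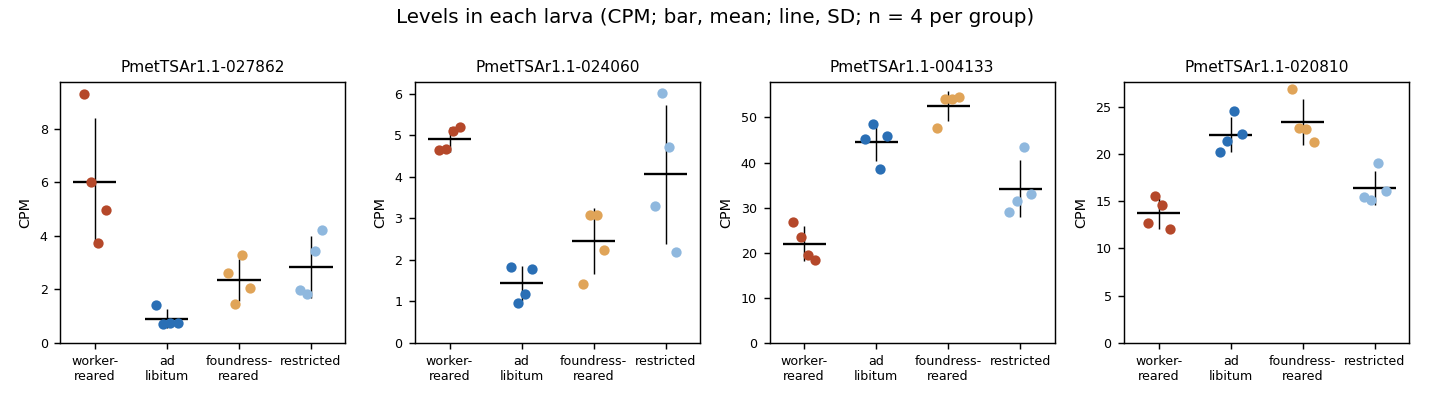
Levels in CPM of the 4 transcripts above whose worker-reared over ad libitum difference departed from the foundress-reared over restricted difference, with 1 point per larva, a bar at the mean and a line for the SD (n = 4). In every panel worker-reared and ad libitum larvae are apart, and the other pair overlaps (first 2 panels) or is separated in the opposite direction (last 2 panels).

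For many transcripts the data bounded the difference between worker-reared and ad libitum larvae. The 95% interval of the log2 fold change lay within -1 and 1, a difference of less than 2-fold either way, for 18070 of 36337 transcripts (49.7%), and within -0.5 and 0.5 for 4418. The median distance from the estimate to either end of its interval was 0.71 on the log2 scale. The interval lay within -1 and 1 for 41.2% of transcripts in foundress-reared over restricted, 45.3% in worker-reared over restricted and 49.4% in foundress-reared over ad libitum larvae. These last comparisons share larvae with the others, and they called 193 (0.531%) and 72 (0.198%) transcripts. An unadjusted p under 0.05 was reached by 3605 transcripts in worker-reared over ad libitum, where 1817 would be reached on average if none differed. Levels of many transcripts can vary together between larvae, so this excess is not by itself evidence of further differences. The 75 calls may not be a full list of differences.

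The 3 most abundant transcripts with an interval within -0.5 and 0.5 are given as examples, and their closeness was fixed by that choice. PmetTSAr1.1-000009 stood at 1579, 1457, 1499 and 1361 CPM in worker-reared and at 1596, 1477, 1744 and 1539 CPM in ad libitum larvae, with a 95% interval of -0.48 to 0.26 for its log2 fold change. PmetTSAr1.1-000181 stood at 1431, 1177, 1699 and 1377 against 1367, 1323, 1389 and 1294 CPM, with an interval of -0.26 to 0.42. In each the ranges of the groups overlapped. PmetTSAr1.1-014929 stood at 1362, 1169, 1540 and 1162 CPM in worker-reared and at 1415, 1475, 1202 and 1351 CPM in ad libitum larvae, with an interval of -0.47 to 0.36. It differed more elsewhere, since 3 of the 4 restricted larvae had 866 to 892 CPM and the fourth 1581 CPM.

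The whole profile of each laboratory larva was then set against the 4 worker-reared larvae, which asks whether ad libitum larvae were nearer than restricted larvae to larvae on the queen path. The mean Spearman correlation with worker-reared larvae, across tested transcripts, was 0.949, 0.944, 0.906 and 0.951 for ad libitum replicates 1 to 4. For restricted replicates 1 to 4 it was 0.921, 0.910, 0.904 and 0.945. Ad libitum replicate 3 was the lowest of its group and restricted replicate 4 the highest of its own, and the groups overlapped. The means were 0.937 ± 0.0209 and 0.920 ± 0.0178 (SD, n = 4), a difference of 0.0175 that did not pass an exact permutation test (two-sided, p = 0.257).

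**Figure D5:**
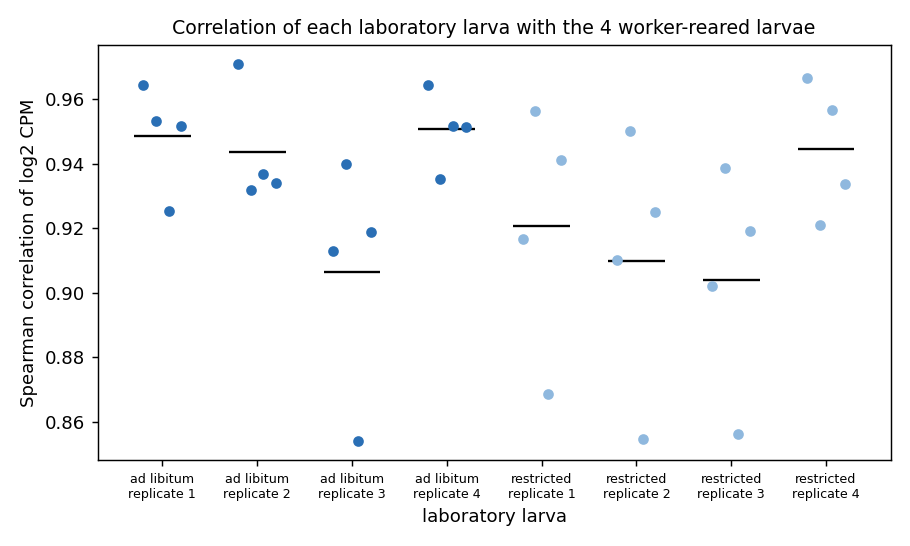
Spearman correlation of log2 CPM across tested transcripts between each laboratory larva and the 4 worker-reared larvae (4 points per laboratory larva, worker-reared replicates 1 to 4 from left to right, with a bar at their mean). The means of the ad libitum larvae (0.906 to 0.951) and of the restricted larvae (0.904 to 0.945) overlap.

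Correlations within and between the 2 groups covered overlapping ranges. The median Spearman correlation was 0.939 over the 16 pairs of a worker-reared and an ad libitum larva (0.854 to 0.971), 0.946 over the 6 pairs of worker-reared larvae (0.900 to 0.964) and 0.955 over the 6 pairs of ad libitum larvae (0.910 to 0.972). Worker-reared replicate 1 with ad libitum replicate 2 was the closest of the 16 pairs, and worker-reared replicate 3 with ad libitum replicate 3 the most distant. The pairs share larvae, library preparation and the set of transcripts, so these values are a description.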

How the data were processed

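Heads of 16 larvae were sequenced, 4 in each of 4 groups, and the authors deposited 1 table of whole-number read counts for 74517 assembled transcripts, with 1 column per larva. Per the submitters' processing notes, the tools were Bowtie2 and eXpress. The sources used here do not give versions, the origin of the assembly, strand handling or whether fragments shared by similar transcripts were divided or repeated. All 16 per-sample columns were used, and the number not used was 0.

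From the counts, transcripts passing edgeR's filterByExpr by group (minimum count 10) were kept, 36337 or 48.8%, which hold 99.7% of all counts. Library totals of 28359372 to 37626473 were scaled by TMM. One mean per group was fitted to 16 libraries (12 residual degrees of freedom) with the robust quasi-likelihood test of edgeR 4.0.16 (limma 3.58.1, R 4.3.3) and Benjamini-Hochberg adjustment, with calls at 0.05. The SE of a log2 fold change is its size over the root of F. CPM were taken from the cpm function of edgeR with TMM-adjusted totals. Correlations used log2 CPM with a prior count of 2. Library measures and likeness were compared by exact permutation over 70 assignments. The model, intervals and exact tests were tested on simulated data, where the model missed most 2-fold and many 4-fold differences. Among 12 pairs of larvae within the worker-reared and ad libitum groups, no library was a repeat of another (chi-square per degree of freedom 51.2 or more). Other pairs of libraries were not examined.

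Replicate numbers follow record order. Transcripts were named by a rule: the smallest p in each direction among called transcripts that averaged at least 10 CPM and did not overlap, the smallest p of the departure among called transcripts, and the 3 most abundant with an interval within -0.5 and 0.5. Because no identifier has a gene name, identifiers are printed for the first 2 in each direction and others are described by value. Gene lists and cell type markers could not be run for the same reason. The comparison and these rules were chosen with earlier results of these data known. Alternatives were other scalings, filters and tools (DESeq2 1.42.0, sva 3.50.0), the 8 libraries alone and the omission of each larva.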

Additional observations from a re-analysis of the deposited data

Results flagged for a closer look

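Within groups of 4, the gap between the highest or lowest larva and the next was compared with the group's whole range, for the transcripts given by identifier and the library measures. Of 66 groups examined 8 had a larva apart by this measure, where chance gives about 1 in 20, or 3.3.

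Ad libitum replicate 3 had a mean Spearman correlation of 0.906 with worker-reared larvae, against 0.944 to 0.951 for the other ad libitum larvae. For PmetTSAr1.1-027862, ad libitum replicate 1 stood at 1.42 CPM and the other 3 at 0.699 to 0.759 CPM. Restricted replicate 4 had 62026 transcripts detected against 57586 to 58253, lay at -55.9 on the first principal component against 24.8 to 40.8 and, for PmetTSAr1.1-014929, stood at 1581 CPM where the others had 866 to 892 CPM. Foundress-reared replicate 1 was high for PmetTSAr1.1-000181, at 1922 CPM beside 1393 to 1436 CPM, and low for PmetTSAr1.1-004133, at 47.6 CPM beside 54.1 to 54.5 CPM. Foundress-reared replicate 2 was high for PmetTSAr1.1-006826, at 7.06 CPM beside 3.27 to 3.73 CPM.

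The difference between worker-reared and ad libitum larvae departed from that between foundress-reared and restricted larvae in 199 transcripts by edgeR's test of the difference itself. On the log2 scale PmetTSAr1.1-004133 departed by -1.64 and PmetTSAr1.1-020810 by -1.19, both lower in worker-reared larvae. PmetTSAr1.1-024060 departed by 2.49 and PmetTSAr1.1-027862 by 3.01, both higher there.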

How the results depend on the processing

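No paired analysis was possible because replicate numbers follow record order and pair no larvae. The 75 calls became 48 with a filter minimum of 50 counts, 37 when tested against 1.5-fold with glmTreat, 365 with limma voom and quality weights (70 of the 75 among them), 168 with 1 surrogate variable (all 75) and 483 with DESeq2 (all 75). Limma voom called 71, with 32.4% higher against 41.3%. With the 8 worker-reared and ad libitum libraries fitted alone, 67 were called, and 49 of these were among the 75. Leaving out 1 larva gave 37 to 87 calls. The count was 48, 45 and 46 without worker-reared replicates 1, 2 and 3, and 42, 37 and 46 without ad libitum replicates 1, 2 and 3. Of the 75, 30 were called in each of the 16 omissions, 25 of the 48 called in both pairs in the same direction and 5 of the other 27.

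The same-sign share of 86.7% was 56.2% with quality weights, 71.4% with 1 surrogate variable and 58.4% with DESeq2, over their longer lists, and 84.6% to 93.5% over the omissions. Over all tested transcripts the share in those 3 alternatives was 43.2%, 45.8% and 47.8%, in the order given. With each pair fitted alone the same-sign share of the called transcripts was 86.4%. The 199 departures became 44 with no filter, 475 with the filter at 50 counts, 21 with voom, 7225 with quality weights, 3435 with 1 surrogate variable and 2172 with DESeq2, and upper quartile scaling gave 254 with 70.9% higher against 51.3%. Omissions gave 0 to 3117. The count of intervals within -1 and 1 ran from 15499 to 19086 over omissions, and the likeness difference from 0.0117 to 0.0276. Among transcripts that averaged at least 10 CPM, the likeness difference was 0.0527 (exact permutation test, two-sided, p = 0.2). Transcripts at 0 in one group and present in the other numbered 3 with presence at 5 counts, 0 at 20 counts and 1 to 4 over omissions. Among the transcripts picked by the naming rule, no called value changed sign in the alternatives run, but many calls were lost. Over these transcripts and alternatives, 213 fold changes or departures no longer passed the threshold, and 634 kept their status, passing or not. Depth limits what can be called for transcripts near the minimum of 10 counts, and the cause of these shifts was not tested.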

Other observations

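Some large fitted differences were not called. Among transcripts that averaged at least 1 CPM over the 8 larvae, 19 had a fitted log2 fold change of at least 5 in size without passing the threshold (edgeR adjusted p 0.0977 to 0.479), and 16 of them were lower in worker-reared larvae. They were singled out after their values were seen. Ad libitum replicate 3 was the highest ad libitum larva in 15 of the 16.

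For 7 of these 16, ad libitum replicate 3 and foundress-reared replicate 4 each had at least 10 times the level of any of the other 14 larvae. The 7 ran from 59.1 to 870 CPM in ad libitum replicate 3 and from 142 to 1841 CPM in foundress-reared replicate 4, and reached at most 9.02 CPM in the other 14 larvae. They made up 0.212% of the counts of ad libitum replicate 3 and 0.507% of those of foundress-reared replicate 4, against at most 0.00157% in any other larva. These larvae came from different groups, populations and years, and neither a function nor an organism can be given to the identifiers here.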
